A study of Homo sapiens with 4 samples.

Results

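The genes described here are the interleukin-6 (IL6) family cytokines IL6, IL11, LIF and CLCF1, the receptor chains IL6ST, OSMR, LIFR and IL6R, the transcription factor STAT3 and its feedback inhibitor SOCS3. They were taken by gene symbol, and all 10 were found among the 39261 genes of the tables. Total RNA was sequenced from 4 lentivirus-treated cultures of human breast cancer lines, with 1 library per culture. The cultures were MDA-MB-231 with TMEM126A knockdown, MDA-MB-231 with a control vector, MCF10-Ca1a (Ca1a) with TMEM126A overexpression, and Ca1a with a control vector. MDA-MB-231 is a mesenchymal-like line that lacks the hormone receptors and HER2, and Ca1a is a tumour-forming line derived from MCF10A breast epithelial cells. MDA-MB-231 grew in L15 with fetal bovine serum. Ca1a grew in DMEM/F12 with horse serum, insulin, EGF, cholera toxin and hydrocortisone, so line and medium cannot be told apart. The labels do not say whether a culture was a pool or a clone.

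IL6 family cytokines signal through receptor complexes that share the chain gp130, encoded by IL6ST. IL6 and IL11 first bind their own alpha chains, whereas LIF joins gp130 to LIFR, and oncostatin M can join it to OSMR. The associated JAK kinases then phosphorylate STAT3, which enters the nucleus and induces SOCS3 among other genes, and SOCS3 in turn blocks the receptor complex. In breast cancer, IL6 and IL11 are known for links with invasion and bone metastasis, and the product of TMEM126A sits in the inner membrane of mitochondria and helps to assemble complex I.

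The promoters of IL11 and IL6 are shown because IL11 differed most between treated and control libraries among the genes with enough reads to be called, and IL6 differed most between the lines. Each window, from RefSeq on GRCh38.p14, runs from 250 bases before the annotated start to 50 bases after it. The IL11 window is chr19:55370414-55370713 on the minus strand and the IL6 window is chr7:22726950-22727249 on the plus strand. Capitals mark matches to TGANTCA (the AP-1 motif), TTCNNNGAA (STAT) or GGG and CC with any 5 bases between them (a loose NF-kB motif), searched on both strands.
IL11: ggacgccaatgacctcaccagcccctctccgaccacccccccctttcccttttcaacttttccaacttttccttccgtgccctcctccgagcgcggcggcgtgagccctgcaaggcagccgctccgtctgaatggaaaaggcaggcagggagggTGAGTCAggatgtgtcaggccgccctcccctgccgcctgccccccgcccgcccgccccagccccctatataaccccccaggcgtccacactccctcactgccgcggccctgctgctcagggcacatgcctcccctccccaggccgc
IL6: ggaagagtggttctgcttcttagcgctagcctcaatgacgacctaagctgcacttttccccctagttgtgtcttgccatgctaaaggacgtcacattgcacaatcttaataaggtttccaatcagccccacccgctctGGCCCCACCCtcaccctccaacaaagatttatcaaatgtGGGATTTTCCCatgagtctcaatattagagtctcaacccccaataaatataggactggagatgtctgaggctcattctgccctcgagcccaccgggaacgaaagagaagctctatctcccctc
The IL11 window held 1 AP-1 match, TGAGTCA at positions -96 to -90 from the start, and no match to the other motifs. The IL6 window held 3 NF-kB matches, 2 of them overlapping each other at the sequence GGGATTTTCCC from position -73 to -63, and the third at -112 to -103. Of 35116 RefSeq windows of this length, 7.71% held the AP-1 letters, 7.66% the STAT letters and 58.7% the NF-kB letters. Windows were present for 8 of the 10 genes, and LIF and CLCF1 had none. The AP-1 letters also stood in the windows of OSMR, at 4 to 10 after the start, and IL6R, at 38 to 44. The NF-kB letters were not particular to IL6, and stood also in at least 1 window of IL6ST, OSMR, LIFR, IL6R, STAT3 and SOCS3. In the windows searched, only LIFR of the 8 genes held STAT letters. These were TTCCTTGAA at -165 to -157 in the first of its 3 windows and TTCATCGAA at -182 to -174 in its second. The 2 SOCS3 windows, chr17:78360876-78361175 and chr17:78359618-78359917, leave out the GENCODE start of that gene at 78360077. The IL6 window and the 3 LIFR windows also leave out the GENCODE starts of those genes, at 22725884 and 38608354. The bases just before these starts of SOCS3, IL6 and LIFR were therefore not searched. These are letter matches in short windows and show no binding.

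Levels are given as normalized counts (reads per gene over a library's DESeq size factor) within a line, and as FPKM (fragments scaled to transcript length and library depth) between genes or lines. The tables held 20673373 to 21405193 reads per library. Intervals are 95% counting intervals, and with 1 library per group they leave out any difference between cultures. A gene is called higher or lower where the interval of its ratio leaves out 1, so each call compares 2 libraries and not the conditions. Calls were limited to genes whose mean was 20 normalized counts or more. In RNA from whole cultures, fewer expressing cells and less RNA per cell cannot be told apart. TMEM126A, the targeted gene, followed the labels, at 22.9 normalized counts with knockdown against 559 with the control vector, and at 9381 with overexpression against 265. Summed over CDH1, EPCAM, KRT5 and KRT17, epithelial markers stood at 1275 FPKM in Ca1a with TMEM126A overexpression and 1190.5 FPKM in its control, and at 4.03 FPKM in the knockdown and 4.53 FPKM in the control library of MDA-MB-231. The leukocyte markers PTPRC, CD14 and CD3E summed to 1.41 to 4.65 FPKM in the 4 libraries, the endothelial markers PECAM1 and CDH5 to 0.409 to 1.36 FPKM, and the fibroblast markers DCN and PDGFRB to 0.0197 to 1.04 FPKM. The mesenchymal markers VIM and ZEB1 summed to 716 FPKM in the knockdown and 729.7 FPKM in the control library of MDA-MB-231, and to 74.9 FPKM in the overexpression and 90.6 FPKM in the control library of Ca1a.

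IL11, a cytokine that signals through IL11RA and gp130, was higher in the knockdown library and lower in the overexpression library than in the matching control. The gene lies at chr19:55364389-55370463 on the minus strand (GENCODE release 29, GRCh38) and overlaps no other annotated gene. MDA-MB-231 cells held 1309.9 normalized IL11 counts with knockdown against 938 with the control vector. The ratio of 1.40 (1.28 to 1.52) was the largest of the 10 genes in this comparison. Ca1a cells held 76 IL11 reads with overexpression against 156 with the control vector, for a ratio of 0.487 (0.365 to 0.645). Among the genes that passed the filter on low counts, it was the only 1 of the family past 1.5-fold in either comparison. In FPKM, IL11 stood at 24.4 in the knockdown and 17.8 in the control library of MDA-MB-231, and at 1.41 in the overexpression and 2.88 in the control library of Ca1a. The intervals of the library levels did not overlap in either line. The authors' deposited table, from DESeq, gave IL11 an adjusted p of 0.143 in the knockdown and 0.215 in the overexpression comparison, the lowest of the 10 genes in each. In the authors' deposited table every other adjusted p of these genes was 1.

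**Figure D1:**
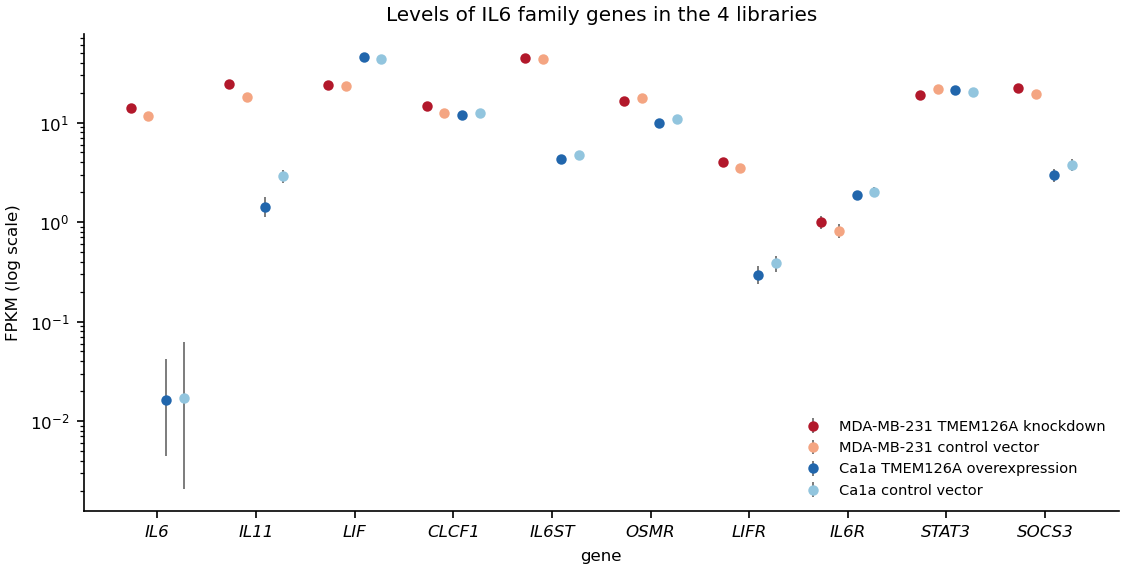
FPKM (log scale) of the 10 genes in each of the 4 libraries, 1 point per library, with bars for the 95% counting interval. IL6 stood at 13.9 and 11.7 FPKM in the MDA-MB-231 libraries against 0.0164 and 0.0171 FPKM in Ca1a, and LIF was the highest of the 10 in Ca1a at 46.0 and 43.6 FPKM.

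The knockdown comparison set the MDA-MB-231 library with TMEM126A knockdown against its control library. Of the 10 genes, which all passed the filter on low counts, 7 were higher in the knockdown library, 2 were lower and 1 lay within counting error. Among all 13292 genes tested, 16.8% were higher and 11.3% lower. The median log2 ratio was 0.22 over the 10 genes and 0.01 over all genes tested. None of the 10 reached 1.5-fold, which 1.44% of all genes did upward and 0.775% downward. Intervals narrow as counts rise, and among the 7877 genes averaging 500 normalized counts or more 21.8% were higher and 14.6% lower. Of the 10 genes, 9 met that minimum, with 7 higher and 2 lower.

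Among the ligands, IL6, the founding cytokine of the family, reached 3506 normalized counts with knockdown against 2914 in the control. Its ratio was 1.20 (1.15 to 1.26). CLCF1, a cytokine that binds the CNTF receptor, reached 698 normalized counts with knockdown against 586, for a ratio of 1.19 (1.07 to 1.33). LIF, the leukemia inhibitory factor gene, stood at 2840.4 with knockdown against 2693 in the control, for a ratio of 1.05 (1.0004 to 1.11). The LIF call ended with each other scaling, for example at 1.05 (0.991 to 1.10) with TMM. All 4 ligand genes stood above their control level, IL11 by the most and LIF by an amount at the edge of counting error.

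The receptor chains were less uniform. LIFR reached 1220.4 normalized counts with knockdown against 1051 in the control, for a ratio of 1.16 (1.07 to 1.26). IL6ST was by far the most abundant of the chains, at 14214 normalized counts with knockdown against 13697, and its ratio was 1.04 (1.01 to 1.06). With scaling by total reads the IL6ST interval reached 1, at 1.01 (0.991 to 1.04). IL6R, the alpha chain for IL6, had 167 with knockdown against 136 in the control, and its ratio of 1.23 (0.974 to 1.55) lay within counting error. OSMR, the oncostatin M receptor chain, was lower, at 3955 with knockdown against 4209, for a ratio of 0.940 (0.900 to 0.982).

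STAT3 and SOCS3 went in opposite directions. STAT3 was lower, at 2724 normalized counts with knockdown against 3033, and the ratio was 0.898 (0.853 to 0.946). SOCS3, a STAT3-induced inhibitor of gp130 signalling at chr17:78356778-78360077 on the minus strand, was higher, at 1321 with knockdown against 1133, for a ratio of 1.17 (1.08 to 1.26). Phosphorylated STAT3 protein was not measured in these data.

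**Figure D2:**
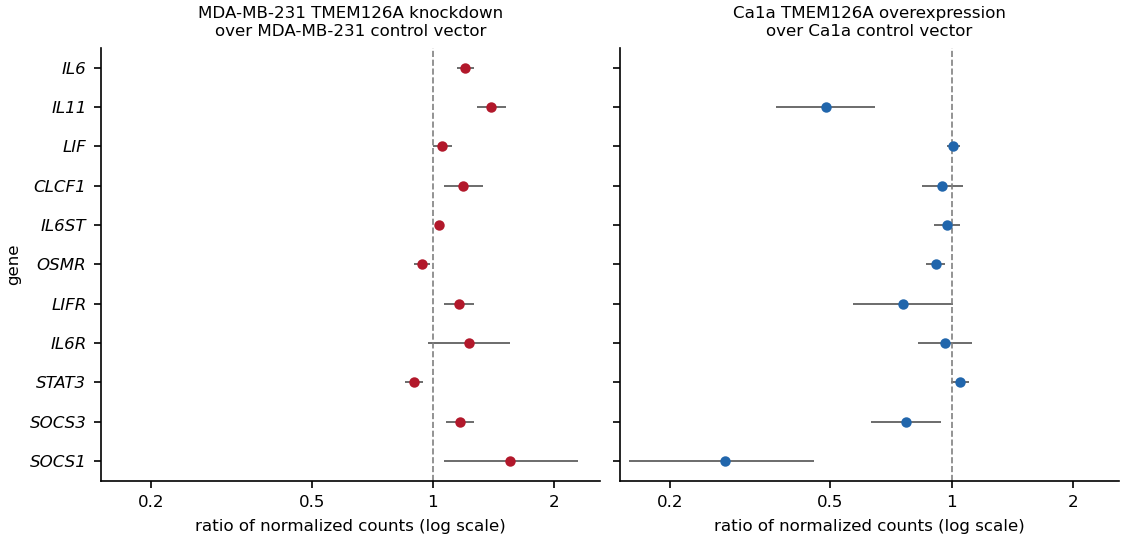
Ratio of normalized counts, treated over control library (log scale), for each gene that passed the filter, with 95% counting intervals and a dashed line at 1. IL11 lay at 1.40 in the knockdown and 0.487 in the overexpression comparison, and SOCS1, another SOCS family inhibitor, at 1.56 and 0.274.

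The overexpression comparison set the Ca1a library with TMEM126A overexpression against its control library. Of the 9 genes that passed the filter, 3 were lower in the overexpression library, 0 were higher and 6 lay within counting error. Among all 12111 genes tested, 16.2% were lower and 18.1% higher. The median log2 ratio was -0.08 over the 9 genes and 0.01 over all genes tested. IL11 alone was at least 1.5-fold lower, as were 1.37% of all genes, and 1.27% of all genes were at least 1.5-fold higher.

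Besides IL11, SOCS3 and OSMR were lower. SOCS3 gave 177 reads with overexpression against 230 in the control, for a ratio of 0.770 (0.629 to 0.940). OSMR gave 2453 reads with overexpression against 2685, a ratio of 0.914 (0.865 to 0.965). OSMR was therefore lower in the treated library of both lines, each time by less than 10%. LIFR gave 88 reads with overexpression against 116 in the control. Its ratio of 0.759 (0.568 to 1.01) was further from 1 than that of OSMR but rested on few reads and lay within counting error.

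Besides LIFR, 5 genes lay within counting error in Ca1a. LIF, the highest of the family there, gave 5250 reads with overexpression against 5198 in the control, for a ratio of 1.01 (0.972 to 1.05). STAT3 had 3032 reads with overexpression against 2886, a ratio of 1.05 (0.998 to 1.11). IL6ST had 1410 with overexpression against 1451 in the control, a ratio of 0.972 (0.902 to 1.05). These 3 encode a ligand, the transcription factor and the shared receptor chain. CLCF1 stood at 576 reads with overexpression against 607 in the control, a ratio of 0.949 (0.845 to 1.07), and IL6R at 324 with overexpression against 336, a ratio of 0.964 (0.825 to 1.13). IL6 was left out of the calls, at 4 reads with overexpression against 2 in the control, a ratio of 2.0 with a counting interval of 0.287 to 22.1.

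**Figure D3:**
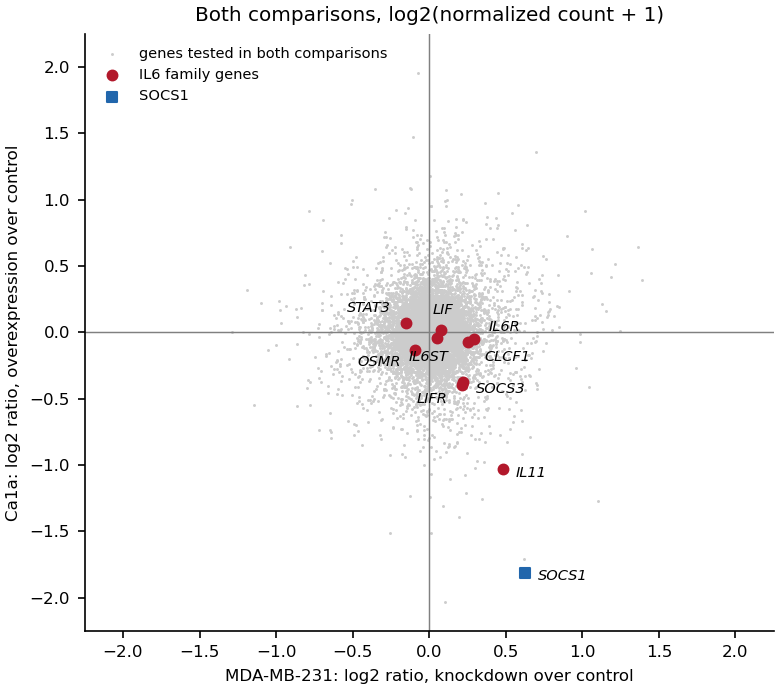
Log2 ratio in Ca1a (overexpression over control) against log2 ratio in MDA-MB-231 (knockdown over control), on log2(normalized count + 1), for the genes tested in both comparisons within the axis limits. IL11 lay at 0.48 and -1.03 and SOCS1 at 0.63 and -1.82, in the quadrant of genes higher in the knockdown and lower in the overexpression library.

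The libraries of the 2 comparisons are separate, so the ratios of each gene can be set side by side. Of the 9 genes tested in both, 6 had a ratio above 1 in the knockdown and below 1 in the overexpression comparison, against 24.4% of all 11349 genes tested in both. Beyond counting error in both comparisons, IL11 and SOCS3 did so, which is 2 of 9, against 3.37% of all genes. With a mean of at least 100 in both comparisons the share of all genes was 3.79%, and IL11 and SOCS3 still made 2 of 9. Neither reached a mean of 500 in Ca1a, and above that mean the count was 0 of 5, against 4.88% of all genes. The family was chosen with earlier results of these data known, so these shares describe it and test nothing.

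The control libraries showed how much of the family each line expressed. With the MDA-MB-231 control over the Ca1a control, 5 of the 10 genes were at least 2-fold higher in FPKM and 1 was at least 2-fold lower. Among the 12526 genes with a mean of at least 0.5 FPKM over the controls, 27.4% were at least 2-fold higher and 13.9% lower. These ratios describe 1 library of each line in its own medium, and no test of the lines was possible.

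IL6, at chr7:22725884-22732002 on the plus strand, showed the widest gap of the 10 genes, at 11.7 FPKM in the MDA-MB-231 control and 0.0171 FPKM in the Ca1a control, which rests on 2 reads there. The FPKM ratio was 686, and the ratio of reads scaled to library totals was 1492 (413 to 12326). LIFR stood at 3.49 FPKM in MDA-MB-231 and 0.384 FPKM in Ca1a, a ratio of 9.10, and IL6ST at 43.1 FPKM in MDA-MB-231 and 4.74 FPKM in Ca1a, a ratio of 9.09. Both chains of the LIF receptor were thus lower in Ca1a, the line in which LIF itself was higher. IL11 stood at 17.8 FPKM in MDA-MB-231 and 2.88 FPKM in Ca1a, a ratio of 6.20, and SOCS3 at 19.3 FPKM in MDA-MB-231 and 3.76 FPKM in Ca1a, a ratio of 5.13.

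The remaining genes were closer or higher in Ca1a. OSMR stood at 17.5 FPKM in the MDA-MB-231 control and 11.0 FPKM in the Ca1a control, a ratio of 1.60. STAT3 stood at 21.6 FPKM in MDA-MB-231 and 20.2 FPKM in Ca1a, a ratio of 1.07, and CLCF1 at 12.4 FPKM in MDA-MB-231 and 12.5 FPKM in Ca1a, a ratio of 0.993. LIF stood at 23.2 FPKM in MDA-MB-231 and 43.6 FPKM in Ca1a, a ratio of 0.531. IL6R stood at 0.816 FPKM in MDA-MB-231 and 2.01 FPKM in Ca1a, a ratio of 0.406, which made it the gene at least 2-fold lower in MDA-MB-231.

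**Figure D4:**
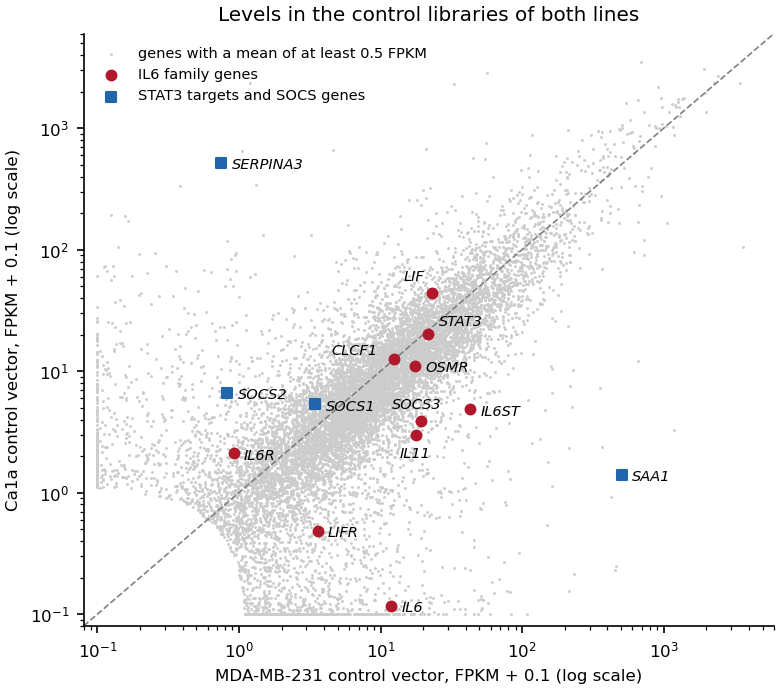
FPKM + 0.1 in the Ca1a control against FPKM + 0.1 in the MDA-MB-231 control (log scales), with the dashed line of equal levels and grey points for genes with a mean of at least 0.5 FPKM. IL6, LIFR, IL6ST, IL11 and SOCS3 lay at least 2-fold toward MDA-MB-231, whereas STAT3, at 21.6 FPKM in MDA-MB-231 and 20.2 FPKM in Ca1a, lay near the line.

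Ranked by FPKM, the order in the MDA-MB-231 control was IL6ST, LIF, STAT3, SOCS3, IL11, OSMR, CLCF1, IL6, LIFR and IL6R. Counting intervals of neighbours overlapped there between LIF and STAT3, between SOCS3, IL11 and OSMR in turn, and between CLCF1 and IL6. In the knockdown library IL11 ranked 2 of 10, where its interval of 23.1 to 25.7 FPKM overlapped that of LIF. In the Ca1a control the order was LIF, STAT3, CLCF1, OSMR, IL6ST, SOCS3, IL11, IL6R, LIFR and IL6, with overlap between SOCS3 and IL11. In the overexpression library IL6R, at 1.86 FPKM, stood above IL11, at 1.41 FPKM, with overlapping intervals. The places of IL6 and OSMR are uncertain. For IL6, reads and FPKM in the MDA-MB-231 control implied a length of 11958 bases. The longest IL6 transcript in GENCODE release 29 has 1527 bases. Reads scaled to the length of the longest transcript and to library totals would put IL6 at 91.7, above IL6ST at 72.7 on the same scale, in place of 8 of 10. On that scale OSMR, at 36.5, would stand above LIF, at 32.6, and STAT3, at 28.9, in the MDA-MB-231 control. In the Ca1a control OSMR, at 22.8, would stand above CLCF1, at 15.5.

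Partners of the family were followed as further lists. Of 8 other ligands and soluble receptors, 3 passed the filter in MDA-MB-231 and all lay within counting error. Among all genes tested there, 16.8% were higher and 11.3% lower. CTF1, the cardiotrophin gene, stood at 6.83 FPKM in the knockdown library and 6.55 FPKM in its control, and EBI3, a subunit of IL27, at 10.7 FPKM with knockdown and 9.95 FPKM in the control. CTF1 is listed at 0 in both Ca1a libraries, and EBI3 had 1 read with overexpression against 0 in the control. IL12A, a subunit of IL12, was the only 1 of the 8 to pass in Ca1a, with 211 and 196 reads in the overexpression and control libraries. OSM, the oncostatin M gene, had at most 1 read in every library.

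Among 5 other receptor chains, 3 passed the filter in each line. IL11RA, the alpha chain for IL11, reached 131 normalized counts with knockdown against 129.8 in the control, for a ratio of 1.01 (0.787 to 1.30). Ca1a cells gave 61 reads with overexpression against 40, for a ratio of 1.52 (1.007 to 2.33). This rests on few reads, and the interval begins so near 1 that the call is at the edge of counting error. In FPKM the ratio was 1.30, and TMM would multiply the count ratio by 0.993. The IL11RA call was not followed over the other scalings. IL11 itself was lower there. IL31RA, which pairs with OSMR, gave 385 reads with overexpression against 451 in the control, for a ratio of 0.854 (0.743 to 0.980). Its knockdown ratio of 1.13 (0.995 to 1.28) lay within counting error, as did both ratios of IL27RA.

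JAK and other STAT genes differed by small amounts. Of the 4 JAK kinase genes in MDA-MB-231, TYK2 was higher at a ratio of 1.08 (1.02 to 1.14), JAK1 was lower at 0.949 (0.904 to 0.995), and JAK2 and JAK3 lay within counting error. In Ca1a 3 of them passed the filter and all lay within counting error. Among all genes tested, 16.8% were higher and 11.3% lower in MDA-MB-231, and 18.1% higher and 16.2% lower in Ca1a. Among other STAT genes, STAT5B was higher in the knockdown library at 1.11 (1.03 to 1.19), and so was STAT6 at 1.09 (1.05 to 1.14). In Ca1a STAT4 was higher with overexpression at 1.19 (1.04 to 1.35), and STAT6 at 1.08 (1.03 to 1.14). STAT5A was expressed in the MDA-MB-231 control at 5.75 FPKM but stood at 0.0804 FPKM in the Ca1a control. The genes of the shedding proteases ADAM10 and ADAM17, which release soluble receptors, had knockdown ratios of 0.972 and 0.967 within counting error. ADAM17 was lower in the overexpression library at 0.928 (0.864 to 0.997), and ADAM10 lay within counting error there at 0.987.

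Of 15 negative regulators, 3 were higher, 3 lower and 9 within counting error in MDA-MB-231, and 2 were higher, 3 lower and 10 within it in Ca1a. Among all genes tested, 16.8% were higher and 11.3% lower in MDA-MB-231, and 18.1% higher and 16.2% lower in Ca1a. SOCS1, which inhibits JAK kinases directly, reached 73.5 normalized counts with knockdown against 47.3 in the control, for a ratio of 1.56 (1.06 to 2.29). In Ca1a it gave 20 reads with overexpression against 73 in the control, which is 3.65-fold lower (2.20 to 6.32). The authors' deposited table, from DESeq, gave SOCS1 an adjusted p of 0.0429 in the overexpression comparison and 1 in the knockdown comparison. With 1 library per group, the deposited p-values cannot measure the spread between cultures. PTPN1, a phosphatase gene, had the same pair of directions as SOCS1, at 1.15 (1.09 to 1.20) in the knockdown and 0.785 (0.739 to 0.834) in the overexpression comparison. PTPN2, the gene of a related phosphatase, had the opposite pair, at 0.874 (0.793 to 0.964) and 1.18 (1.09 to 1.27). SOCS2 was lower in the knockdown library, at 0.669 (0.480 to 0.926), and PIAS3, an inhibitor of STAT3, was higher in the overexpression library, at 1.24 (1.13 to 1.36).

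Of 32 genes known as STAT3 targets, 23 passed the filter in MDA-MB-231, with 7 higher, 2 lower and 14 within counting error, beside 16.8% higher and 11.3% lower among all genes tested. In Ca1a 21 passed, with 4 higher, 9 lower and 8 within it, beside 18.1% higher and 16.2% lower among all genes tested. The median log2 ratios were 0.10 and -0.04. Among the 7099 genes averaging 500 normalized counts or more in Ca1a, 23.6% were higher and 20.8% lower in the overexpression library. BCL3, a nuclear IkB family gene, was higher in the knockdown library, with 535 normalized counts against 441 in its control, a ratio of 1.21 (1.07 to 1.38). It was lower in the overexpression library, with 509 reads against 615, a ratio of 0.828 (0.734 to 0.932). PIM3, a survival kinase gene, stood at 1.19 (1.11 to 1.28) in the knockdown and 0.954 (0.922 to 0.987) in the overexpression comparison, and TIMP1, a metalloprotease inhibitor gene, at 1.07 (1.03 to 1.11) and 0.758 (0.701 to 0.818). CEBPB and JUNB were at least 1.5-fold lower in the overexpression library, at ratios of 0.577 (0.545 to 0.611) and 0.651 (0.623 to 0.681), but lay within counting error in the knockdown comparison at 1.001 and 0.974. The 4 genes higher in the overexpression library were SERPINA3, MYC at 1.13 (1.11 to 1.16), BIRC5 at 1.13 (1.04 to 1.21) and VEGFA at 1.04 (1.02 to 1.07). MCL1 was lower in both comparisons, at 0.951 (0.923 to 0.979) with knockdown and 0.847 (0.833 to 0.861) with overexpression. Over all 7 lists, 49 genes were tested in both comparisons. Of these, 5 were higher in the knockdown and lower in the overexpression library beyond counting error, against 3.37% of all genes. Among all genes with a mean of at least 500 in both comparisons that share was 4.88%. PTPN2 alone of the 49 had the opposite pair, for which no share of all genes was computed, so the 2 directions cannot be compared.

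Among the acute-phase genes of this list, SAA1 and SERPINA3 differed far more between the lines than between treated and control libraries. SAA1, a serum amyloid gene, stood at 478 FPKM in the knockdown and 504 FPKM in the control library of MDA-MB-231, against 2.47 and 1.29 FPKM in the overexpression and control libraries of Ca1a. SERPINA3, the antichymotrypsin gene, showed the reverse, at 0.862 FPKM with knockdown and 0.649 FPKM in the control of MDA-MB-231, and 607 FPKM with overexpression and 519 FPKM in the control of Ca1a. In Ca1a its ratio was 1.21 (1.19 to 1.23), and in MDA-MB-231 its ratio of 1.51 (0.936 to 2.48) lay within counting error. SAA1 and SAA2 are near-identical copies, so their levels are uncertain.

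**Figure D5:**
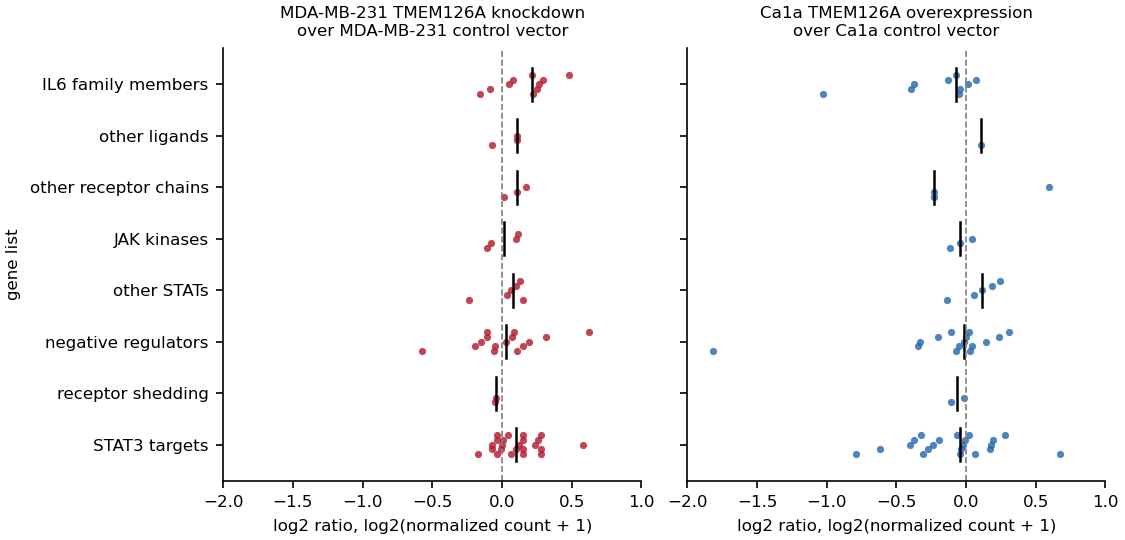
Log2 ratio, on log2(normalized count + 1), of each gene that passed the filter, by gene list, with a black line at the list's median. SOCS1, at 0.63 in the knockdown and -1.82 in the overexpression comparison, and IL11, at 0.48 and -1.03, lie furthest out in their lists.

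Genes with a like pattern were sought over 3 log2 ratios, those of both comparisons and that of the control libraries in FPKM + 0.1, by Euclidean distance among 11349 genes. Nearest to IL11 were FHL1 at a distance of 0.28, FLRT2 at 0.30 and KLF2 at 0.38. FHL1 had log2 ratios of 0.23 in the knockdown and -1.07 in the overexpression comparison, and FLRT2 of 0.30 and -0.81. Nearest to SOCS3 were CDR2L at 0.09, PVRL2 at 0.11 and LAGE3 at 0.12. Nearest to IL6ST were SYNJ2 at 0.07, LOC653503 at 0.08 and SIPA1L3 at 0.09. LIF, OSMR and STAT3 had their nearest genes at 0.02 to 0.04, and IL6 was not placed because it failed the filter in Ca1a.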

How the data were processed

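RNA-seq values of 4 libraries were used, 1 per group. The submitters' processing notes name DESeq, HTSeq, Cufflinks and HISAT2, with builds hg38 and GRCh38.p5. Versions, order and strand setting are not stated there. The Ca1a columns hold counts per gene, deposited as base means (per the file headers) by DESeq, and being whole numbers they were read as having a size factor of 1. The MDA-MB-231 columns hold a signal, deposited as base means per the file headers. All of it came in whole multiples of the smallest value (tolerance 1e-06), which served as reads. Log2 fold changes, p-values and adjusted p-values of the authors were copied. They come from 1 library per group, so those p-values cannot measure the spread between cultures. The FPKM table was deposited by the authors, and its denominator is unknown.

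From these, ratios with exact conditional binomial (Clopper-Pearson) intervals and levels with exact Poisson intervals at 95% were computed for all genes with a mean of at least 20. The files count reads and no molecular identifiers are named, so the intervals describe counting error alone. Log2 ratios used a pseudocount of 1, and for FPKM 0.1. The members and lists were chosen with earlier results of these data known. By rule the text names from the 10 genes, TMEM126A, up to 4 genes per list and comparison with the largest log2 ratios, any gene of lists of up to 8, and the 3 nearest genes in pattern. PIM3, PTPN2, MYC, BIRC5, VEGFA and MCL1 were chosen after their values were seen. A result on the other STAT genes is not reported here. Alternatives were other filters, fold thresholds and scalings, and reads in place of FPKM; SOCS1, lengths from GENCODE and the shares among abundant genes were added after seeing the data. Motifs were searched in RefSeq promoter windows on GRCh38.p14, and transcript lengths came from GENCODE release 29. Tools were R 4.3.3 with edgeR 4.0.16 (for TMM), and scipy 1.17.1, pandas 2.3.3, numpy 2.4.6 and matplotlib 3.10.9 under python 3.11.15.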

Additional observations from a re-analysis of the deposited data

How the results depend on the processing

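With scaling by total reads, TMM or the median ratio, 5, 6 and 6 of the 10 genes were higher in the knockdown library in place of 7, LIF being lost each time and IL6ST with total reads; 2 stayed lower. Counts for the overexpression comparison did not move with scaling or filter. At the lowest fold threshold tried, 1 gene was higher in the knockdown library (IL11) in place of 0, and 2 were lower in the overexpression library (IL11 and SOCS3) in place of 1. Between the controls, the count of genes lower in MDA-MB-231 became 0 with a minimum mean of 5 FPKM or a 4-fold threshold. No ratio called in the main setting changed direction under these alternatives. The IL6 ratio of the controls was 6.66 on the log2 scale in FPKM + 0.1 and 9.93 in reads scaled to library totals with a pseudocount of 0.05; the cause was not tested. No paired analysis was possible because each group has 1 library.

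Of the 10 genes, 7 overlap another annotated gene and IL11, STAT3 and SOCS3 overlap none. Without a known strand setting, reads of antisense partners such as LIF-AS1 and LIFR-AS1 cannot be told apart from those of the gene. With 1 library per group, differences between cultures unrelated to TMEM126A cannot be told apart from its effect. The depth limits IL6 in Ca1a, at 4 and 2 reads in the overexpression and control libraries.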

Other observations

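In the MDA-MB-231 control, reads per gene and FPKM together imply a transcript length, which for IL6 was 7.83 times its longest annotated transcript. Over 10126 protein-coding genes with at least 100 reads the median of this quotient was 1.44, the central 95% ran from 0.437 to 3.88, and 0.346% of genes exceeded IL6. For the other 9 genes it lay between 1.03, for SOCS3, and 2.08, for OSMR. IL6 overlaps STEAP1B and an antisense transcript on the opposite strand, and the part of these overlaps in the quotient was not tested.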
